A study of Mus musculus with 37 samples.

Results

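The genes described here are 7 genes of MHC class II antigen presentation, taken by symbol from a table of 56748 genes: H2-Aa, H2-Ab1, H2-Eb1, H2-DMa, H2-DMb1, Cd74 and Ciita. All 7 were present once in the table, and all 7 were among the 16530 genes that passed a filter on low values and were tested. The study followed the mouse heart after cardiac arrest and resuscitation, and asked how the response to arrest differs from the response to adrenaline. RNA of left ventricular tissue was sequenced in 37 libraries in 9 groups, 5 from Naïve mice and 4 from each Adr and Arrest group (0.5 d, 1 d, 3 d or 7 d after the procedure). The mice were C57BL/6J of both sexes, aged 8 to 10 weeks, and mice of every group were given isoflurane. Naïve mice had no injection and no intubation, and the labels describe them as having had no intervention. Adr mice, which the labels call sham, were intubated and ventilated, received 40 µL of saline into the left ventricle and, after 8 min, 500 µL of adrenaline at 15 µg/mL. Arrest mice received 40 µL of 0.5 M potassium chloride in place of the saline and, after 8 min of asystole, the same adrenaline with chest compressions. The Adr groups are therefore a control for the injection, ventilation and adrenaline, but not for potassium chloride or chest compressions, and the Naïve group is a control for none of these. Hearts were flushed and the apex was removed, and the labels give the tissue only as heart. The labels do not state that each library came from a separate mouse, so the p-values below measure the spread between these libraries.

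MHC class II molecules are pairs of an alpha and a beta chain that carry peptides from engulfed proteins to the surface of antigen presenting cells, where CD4 T cells read them. H2-Aa and H2-Ab1 encode the alpha and beta chain of I-A, and H2-Eb1 encodes the beta chain of I-E. Cd74 is the invariant chain, which occupies the groove during assembly and steers the complex to the endosome, and H2-DMa with H2-DMb1 forms the DM molecule that exchanges the invariant chain fragment for peptide. Ciita is the coactivator on which transcription of these genes depends, and it is recruited by RFX and NF-Y factors bound to X and Y boxes just upstream of class II genes. In the heart these transcripts come mainly from dendritic cells, macrophages and B cells. Mice of the b haplotype, to which C57BL/6 belongs, do not express the alpha chain of I-E.

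Class II genes share their promoter modules, so the 150 bases before the transcription start are shown for 1 alpha chain, 1 beta chain and 1 DM chain. They come from RefSeq windows of the mouse assembly GRCm38.p6, which held 4 of the 7 members (H2-Aa, H2-Eb1, H2-DMa and H2-DMb1). H2-Ab1, Cd74 and Ciita were not matched. Windows from 250 bases before to 50 bases after the start were searched on both strands for GATTGG, the core of the Y box, and for ACNGATG, a core of the X box. The sequences run 5′ to 3′ on the strand of the gene, from base -150 to base -1, with capitals at each match to either core. H2-Eb1 lies on the plus strand (chr17:34305717-34305866), H2-DMb1 on the plus strand (chr17:34153041-34153190) and H2-Aa on the minus strand (chr17:34287824-34287973).
H2-Eb1: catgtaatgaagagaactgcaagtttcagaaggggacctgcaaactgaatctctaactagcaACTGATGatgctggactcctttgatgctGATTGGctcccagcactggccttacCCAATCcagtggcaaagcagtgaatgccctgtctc
H2-DMb1: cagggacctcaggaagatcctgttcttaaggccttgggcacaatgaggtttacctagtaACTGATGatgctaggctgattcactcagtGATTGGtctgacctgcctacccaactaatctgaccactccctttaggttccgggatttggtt
H2-Aa: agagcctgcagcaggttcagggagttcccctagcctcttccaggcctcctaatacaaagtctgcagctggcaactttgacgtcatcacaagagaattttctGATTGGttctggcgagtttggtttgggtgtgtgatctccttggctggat

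In H2-Eb1 the X core began at base -88 and the Y core at base -60, with a further Y core on the opposite strand from base -35. In H2-DMb1 the X core began at base -91 and the Y core at base -62. The H2-Aa window held the Y core from base -49, and its match to ACNGATG began at base -232 on the opposite strand, outside the stretch shown. Only this pattern was searched for the X box, so an X box with other letters near the Y core would have been missed. H2-DMa had 2 windows, of which 1 held GATTGG, at base -199, and neither held ACNGATG. Over all 32851 windows, 16.1% held GATTGG and 9.85% held ACNGATG, so either core alone is common. Both cores on the strand of the gene with 27 to 30 bases from the start of one to the start of the other, a spacing chosen after these windows had been seen, occurred in 6 windows (0.0183%). Of those 6, 4 belonged to class II genes, namely H2-Eb1, H2-DMb1 and their neighbours H2-Eb2 and H2-DMb2. These matches describe letters in a window and carry no measurement of binding.

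Levels are given as FPKM, fragments scaled to the length of the gene and to the library, as the authors deposited them. The library depth that the values imply was 0.889 to 1.41 times the fragments counted, highest in replicate 3 of Adr 3 d, so the deposited values carry a scaling other than the counted total. The libraries held 13.2 M to 30.2 M fragments counted on genes, with a median of 14.9 M. Averaged over the 37 libraries, Cd74 was highest at 115 FPKM, followed by H2-Eb1 at 38.2, H2-Ab1 at 26.5 and H2-Aa at 22.6 FPKM. The DM chains were lower, at 4.62 FPKM for H2-DMb1 and 2.68 FPKM for H2-DMa, and Ciita was lowest at 0.403 FPKM. Ciita rested on 4 to 336 fragments per library, whereas Cd74 rested on 311 to 8666, so Ciita carried the largest counting error of the 7. H2-Ea, the alpha chain of I-E, was listed at 0 in all 37 libraries. The remaining class II chains were low throughout, with H2-DMb2 at no more than 3.01 FPKM, H2-Ob and H2-Oa at no more than 0.998 and 0.826 FPKM, and H2-Eb2 at no more than 0.401 FPKM.

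A pair of libraries stood apart and are given with and without. In replicate 3 of the Adr 3 d group, genes of the mitochondrial genome took 9.36% of fragments against 20.8% or more in the others, and summed FPKM of the macrophage markers reached 1163 against at most 613 elsewhere. The same library had 3793 FPKM over 8 cardiomyocyte markers, where the others had at least 8650, and it held the highest Cd74, H2-DMa, H2-DMb1 and Ciita of all 37 libraries. The study's methods name 1 excluded Adr sample at 3 days without saying which. Replicate 1 of the Arrest 3 d group was lowest of all libraries for H2-Aa, H2-Ab1, H2-Eb1, H2-DMa and Cd74, and was among the 8 lowest libraries for all 7 genes. Its macrophage markers summed to 580 FPKM and its cardiomyocyte markers to 8753 FPKM, and their part in its class II values was not tested.

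**Figure D1:**
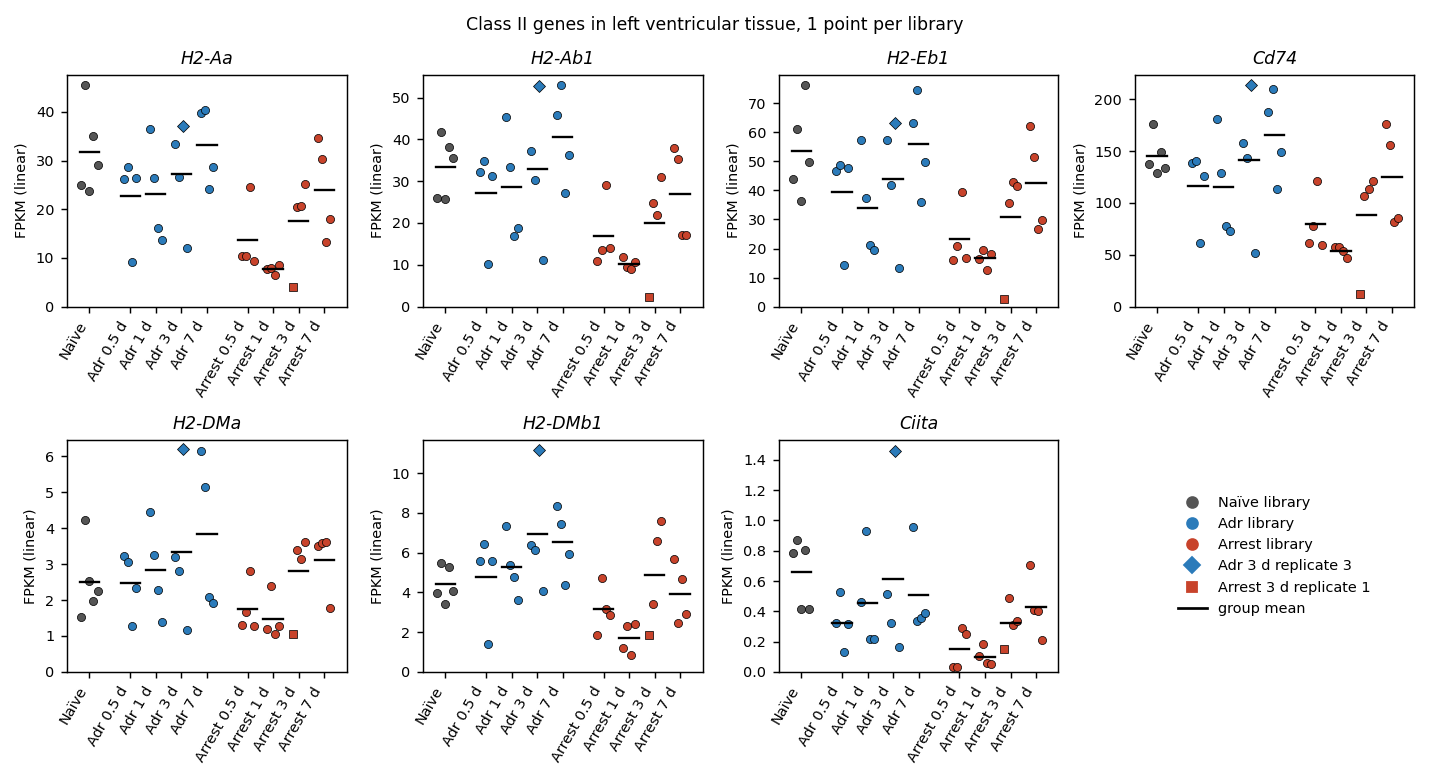
FPKM (linear axes from 0) of the 7 class II genes, with 1 point per library, a line at each group mean, and the Naïve, Adr and Arrest groups side by side. The 4 Arrest 1 d libraries lie below all 5 Naïve libraries for 6 genes. Replicate 1 of Arrest 3 d (square) is the lowest of the 37 libraries for 5 genes, and replicate 3 of Adr 3 d (diamond) is the highest for 4.

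The class II genes were lowest 1 day after arrest. The mean of each of the 7 genes was lower in the Arrest 1 d group than in any of the other 8 groups, and 5 of the 7 passed the test against Naïve. H2-Aa fell to 24.2% of the Naïve mean, H2-Ab1 to 30.4%, Cd74 to 37.1%, H2-DMb1 to 37.9% and Ciita to 15.2%. H2-Eb1 stood at 31.1% and H2-DMa at 59.2% of the Naïve mean, and neither passed. Tests were limma fits on log2(FPKM + 1) with all 9 groups in 1 model, p-values were adjusted by Benjamini-Hochberg over the 16530 genes, and a gene counts as called at an adjusted p of at most 0.05. In this comparison 3.24% of all tested genes were called lower and 7.11% were called in either direction. The median log2 difference was -1.41 over the 7 genes and 0.03 over all genes tested. Bulk tissue does not tell fewer cells of a type from less RNA per cell, and this holds for every difference below.

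Of the I-A and I-E chains, H2-Aa had the largest log2 difference. Its FPKM was 25.0, 45.6, 23.7, 35.0 and 29.2 in the 5 Naïve libraries and 7.74, 7.99, 6.42 and 8.55 in the 4 Arrest 1 d libraries. All 4 arrest libraries lay well below the lowest Naïve library. The log2 difference was -1.88 ± 0.40 (SE; adjusted p = 0.00449). Its partner H2-Ab1 read 26.1, 41.7, 25.8, 38.2 and 35.5 FPKM in Naïve hearts and 11.8, 9.39, 8.92 and 10.6 FPKM at Arrest 1 d. Again every arrest library was below every Naïve library, and the log2 difference was -1.60 ± 0.47 (SE; adjusted p = 0.0349). H2-Eb1 gave 44.0, 61.2, 36.4, 76.2 and 49.6 FPKM in Naïve hearts and 16.5, 19.4, 12.7 and 18.0 FPKM at Arrest 1 d. Here too the groups did not overlap, but the log2 difference of -1.59 ± 0.52 (SE) missed the threshold (adjusted p = 0.0592). The adjusted p of H2-Eb1 was 0.0474 without replicate 3 of Adr 3 d, which enters only the shared estimate of the spread.

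Cd74, the invariant chain, followed the chains it assembles with. The Naïve libraries held 138, 176, 128, 150 and 134 FPKM, and the Arrest 1 d libraries 57.5, 57.1, 53.7 and 47.2 FPKM. The arrest libraries lay within a narrow band, at 53.9 ± 4.76 FPKM (mean ± SD, n = 4) against 145 ± 19.0 FPKM (mean ± SD, n = 5) in Naïve hearts. The log2 difference was -1.41 ± 0.45 (SE; adjusted p = 0.0486).

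The DM chains, which load peptide, differed from each other in how clearly they moved. H2-DMb1, whose reads may be shared with its near-identical copy H2-DMb2, stood at 3.95, 5.51, 3.40, 5.29 and 4.07 FPKM in Naïve hearts and at 1.18, 2.31, 0.829 and 2.42 FPKM at Arrest 1 d. These groups did not overlap, with a log2 difference of -1.05 ± 0.32 (SE; adjusted p = 0.0379). H2-DMa stood at 1.52, 4.22, 2.54, 1.98 and 2.26 FPKM in Naïve hearts and at 1.20, 2.40, 1.05 and 1.28 FPKM at Arrest 1 d. Replicate 2 of Arrest 1 d lay above 3 of the Naïve libraries, and the log2 difference of -0.48 ± 0.31 (SE) did not pass (adjusted p = 0.393). Whether the DM chains differed from one another was not tested.

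Ciita, the coactivator, was low everywhere and lowest after arrest. It read 0.784, 0.872, 0.415, 0.802 and 0.413 FPKM in Naïve hearts, or 117, 132, 52, 104 and 53 fragments. At Arrest 1 d it read 0.104, 0.183, 0.0568 and 0.0556 FPKM, or 13, 27, 7 and 9 fragments, all below the lowest Naïve library. The log2 difference was -0.58 ± 0.17 (SE; adjusted p = 0.0361) on the log2(FPKM + 1) scale, which understates changes at such low levels, and -1.90 with 0.1 added in place of 1 (adjusted p = 0.0128).

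Counting the genes whose 4 Arrest 1 d libraries all lay below the 5 Naïve libraries gave 6 of the 7, all but H2-DMa, where 4.8% of all tested genes did so. The call of H2-Aa did not hang on any library. The other 4 calls did, because leaving out replicate 2 or 4 of Naïve, or replicate 1 or 3 of Arrest 1 d, left only H2-Aa called. Leaving out replicate 1 of Naïve left H2-Aa and H2-Ab1, replicate 5 of Naïve H2-Aa and Ciita, and replicate 2 or 4 of Arrest 1 d H2-Aa and H2-DMb1. The count of 5 also fell to 2 (H2-Aa and H2-Ab1) with libraries scaled by counted fragments and to 1 with no filter on low values. Without replicate 3 of Adr 3 d, 6 genes were called, where 4.59% of all genes were called lower. The same 6 were called without replicate 1 of Arrest 3 d, where the share of all genes was not counted.

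**Figure D2:**
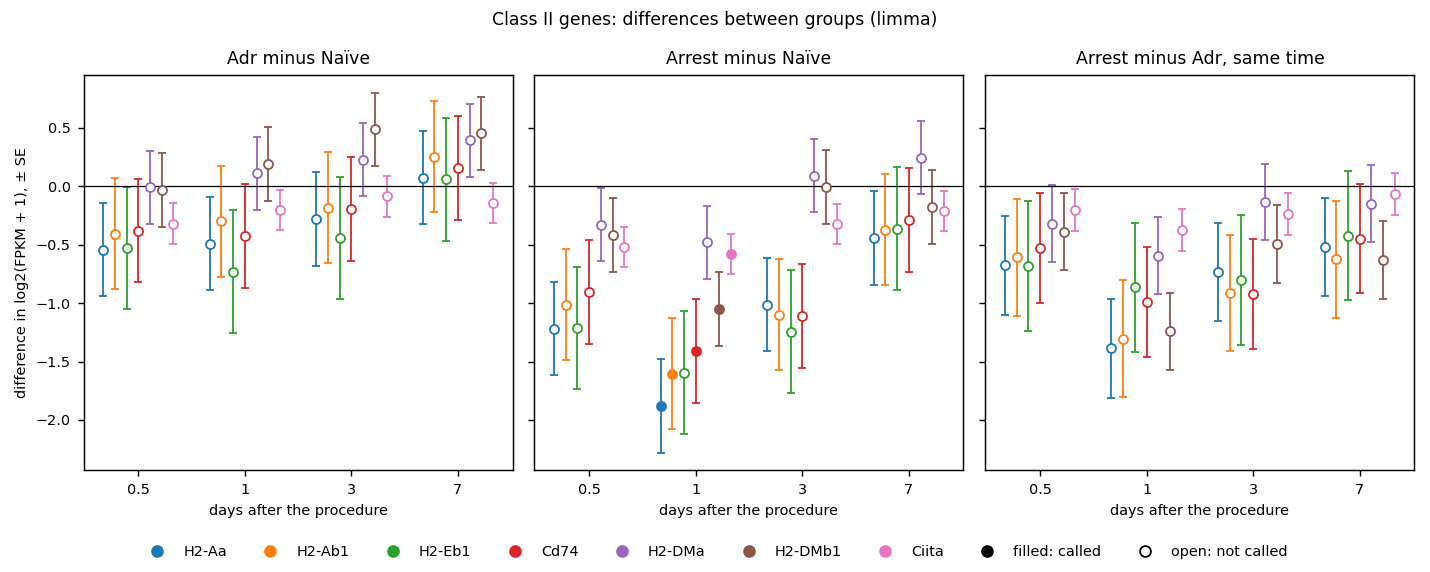
Differences in log2(FPKM + 1) with their standard errors for the 7 class II genes, over days after the procedure, for Adr minus Naïve, Arrest minus Naïve and Arrest minus Adr at the same time. Filled points passed the test, and the 5 filled points all belong to Arrest minus Naïve at 1 day.

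At 0.5 days after arrest all 7 means were below the Naïve means, and none passed the test. H2-Aa read 10.4, 10.5, 24.5 and 9.43 FPKM in the Arrest 0.5 d libraries, with 3 libraries near the levels of Arrest 1 d and replicate 3 within the Naïve range. The log2 difference from Naïve was -1.22 ± 0.40 (SE; adjusted p = 0.0851). Cd74 read 60.9, 78.0, 121 and 59.4 FPKM, all below the lowest Naïve library, with an adjusted p of 0.274. Ciita read 0.0299, 0.0310, 0.290 and 0.253 FPKM, and its first 2 values rested on 4 and 5 fragments. Its log2 difference was -0.52 ± 0.17 (SE; adjusted p = 0.0884), and it was called without replicate 3 of Adr 3 d (adjusted p = 0.0329), where 2.49% of all genes were called lower. None of the 7 genes was called by limma with all libraries, where 3.21% of genes were called, while 5 of the 7 were lower at an unadjusted p of at most 0.05 (7.65% of all genes). Cd74 and Ciita were the 2 genes whose groups did not overlap, against 3.71% of all genes.

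At 3 days the Arrest group was split. H2-Aa read 4.04, 20.5, 20.7 and 25.3 FPKM and Cd74 read 12.5, 107, 113 and 122 FPKM in replicates 1 to 4. Replicate 1 was far below the other 3 libraries for both genes. H2-Eb1 ran from 2.56 FPKM in replicate 1 to 35.8 FPKM or more in the others, and H2-Ab1 from 2.28 to 21.9 FPKM or more. With limma none of the 7 was called against Naïve (0.139% of all genes were), and 4 were lower at an unadjusted p of at most 0.05 (6.13% of all genes). The log2 difference of Cd74 was -1.11 with all libraries and -0.34 without replicate 1, and that of H2-Eb1 went from -1.24 to -0.36. H2-Aa went from -1.01 to -0.46 and H2-Ab1 from -1.10 to -0.34, with adjusted p-values of 0.672 and 0.794 without replicate 1. Cd74 was the 1 gene whose 4 libraries all lay below Naïve, against 1.78% of all genes.

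At 7 days Arrest libraries reached into the Naïve range for all 7 genes, as they had at 3 days for all but Cd74. H2-Aa read 34.6, 30.4, 13.2 and 18.0 FPKM and Cd74 read 176, 156, 81.9 and 85.1 FPKM, with replicates 1 and 2 at Naïve levels and replicates 3 and 4 below the lowest Naïve library. Limma called none of the 7 against Naïve and none had an unadjusted p of at most 0.05, and of all genes 0% were called. Against Arrest 1 d, a comparison added after the values had been seen, every Arrest 7 d library was higher for 6 of the 7 genes (6.33% of all genes). The exception was H2-DMa, whose lowest Arrest 7 d library, at 1.77 FPKM, was below the highest Arrest 1 d library. The log2 difference of H2-Aa was 1.44 ± 0.42 (SE; adjusted p = 0.0673), and none of the 7 passed, while 6 were higher at an unadjusted p of at most 0.05 (7.14% of all genes). Limma called 1.89% of all genes in that comparison. H2-Aa was called higher without replicate 3 of Adr 3 d (adjusted p = 0.046), where 1.72% of all genes were called higher. From 1 to 3 days none was called by limma (0.175% of all genes were), and H2-Aa and H2-DMb1 were higher at an unadjusted p of at most 0.05 (5.25% of all genes).

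In the Adr groups, which had the injection, ventilation and adrenaline, the level differed from library to library. H2-Aa read 26.3, 28.7, 9.25 and 26.4 FPKM at 0.5 days and 36.6, 26.5, 16.2 and 13.7 FPKM at 1 day. It read 33.4, 26.6, 37.2 and 12 FPKM at 3 days and 39.8, 40.4, 24.1 and 28.7 FPKM at 7 days. Below the Naïve range lay 1 library at 0.5 days, 2 at 1 day, 1 at 3 days and none at 7 days. Cd74 was lowest of the Adr libraries in the same 4, with 61.5 FPKM in replicate 3 at 0.5 days, 77.9 and 73.4 FPKM in replicates 3 and 4 at 1 day, and 51.6 FPKM in replicate 4 at 3 days. With all libraries limma called none of the 7 genes against Naïve at any of the 4 times, and none had an unadjusted p of at most 0.05. Of all genes 0.188%, 0.69%, 0% and 0% were called, in order of time. Ciita averaged 49.3% of the Naïve mean at Adr 0.5 d. Without replicate 3 of Adr 3 d its unadjusted limma p there was 0.0385 (adjusted p = 0.276). In that fit 6.79% of all genes were lower at an unadjusted p of at most 0.05. At Adr 3 d, leaving that replicate out took Ciita from 93.6% to 50.8% of the Naïve mean, and Cd74 from 97.6% to 81.1%. The comparisons of Adr and of Arrest with Naïve share the 5 Naïve libraries. At 7 days the median log2 difference of the 7 genes was 0.15 for Adr and -0.29 for Arrest.

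Arrest was compared with Adr at the same time to set aside the injection, ventilation and adrenaline. Potassium chloride, asystole and chest compressions differ together between these groups and cannot be told apart. At 1 day H2-Aa was 7.67 ± 0.90 FPKM in Arrest and 23.2 ± 10.5 FPKM in Adr (mean ± SD, n = 4 each). All 4 Arrest libraries lay below all 4 Adr libraries for 6 of the 7 genes, all but H2-DMa, against 2.06% of all genes. The log2 difference of H2-Aa was -1.39 ± 0.42 (SE), with an adjusted p of 0.473. For H2-DMb1 it was -1.24 ± 0.33 (SE), with an adjusted p of 0.44. In total 5 of the 7 genes were lower at an unadjusted p of at most 0.05 (3.16% of all genes). No gene of the whole table was called between these groups (0%), so the class II genes did not pass either. At 0.5 d, 3 d and 7 d limma called none of the 7 and none had an unadjusted p of at most 0.05, where 0%, 0% and 0.00605% of all genes were called.

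A test for any difference among the 9 groups asks the question without choosing a time. H2-Aa passed it (limma F test, adjusted p = 0.0322), and the other 6 did not. Next came H2-DMb1 with an adjusted p of 0.0567, and last H2-DMa with 0.555. Among all genes 3.9% passed. Without replicate 3 of Adr 3 d, H2-Aa alone passed again (adjusted p = 0.0269), where 6.18% of all genes did. Without replicate 1 of Arrest 3 d, a fit chosen after seeing the data, 4 genes passed. The share of all genes passing in that fit was not counted, so the 4 cannot be set against it. In order of mean level, 54 of the 56 pairs of neighbouring groups overlapped. The 2 that did not were the steps from Arrest 0.5 d down to Arrest 1 d in H2-Aa and in Cd74.

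The chains and the invariant chain moved together from library to library. Over the 37 libraries, Pearson's r of log2(FPKM + 1) between H2-Aa, H2-Ab1, H2-Eb1 and Cd74 ran from 0.95 to 0.98 and Spearman's rho from 0.96 to 0.99. The 15 pairs with H2-DMa, H2-DMb1 or Ciita were looser, with r from 0.66 to 0.79 and rho from 0.63 to 0.83. All 21 pairs had a permutation p adjusted over the 21 of at most 6e-05, with 100000 permutations, whose smallest possible p is 1e-05. The groups contribute to these values, but r was 0.95 to 0.98 and 0.56 to 0.80 on deviations from the group means. Without the 2 libraries farthest from the median of the first gene of each pair, r ran from 0.96 to 0.98 for the 6 pairs of the first 4 genes, and from 0.59 to 0.77 for the others. Without replicate 3 of Adr 3 d the looser pairs had r from 0.61 to 0.79. Points of 1 library share its depth and its scaling.

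**Figure D3:**
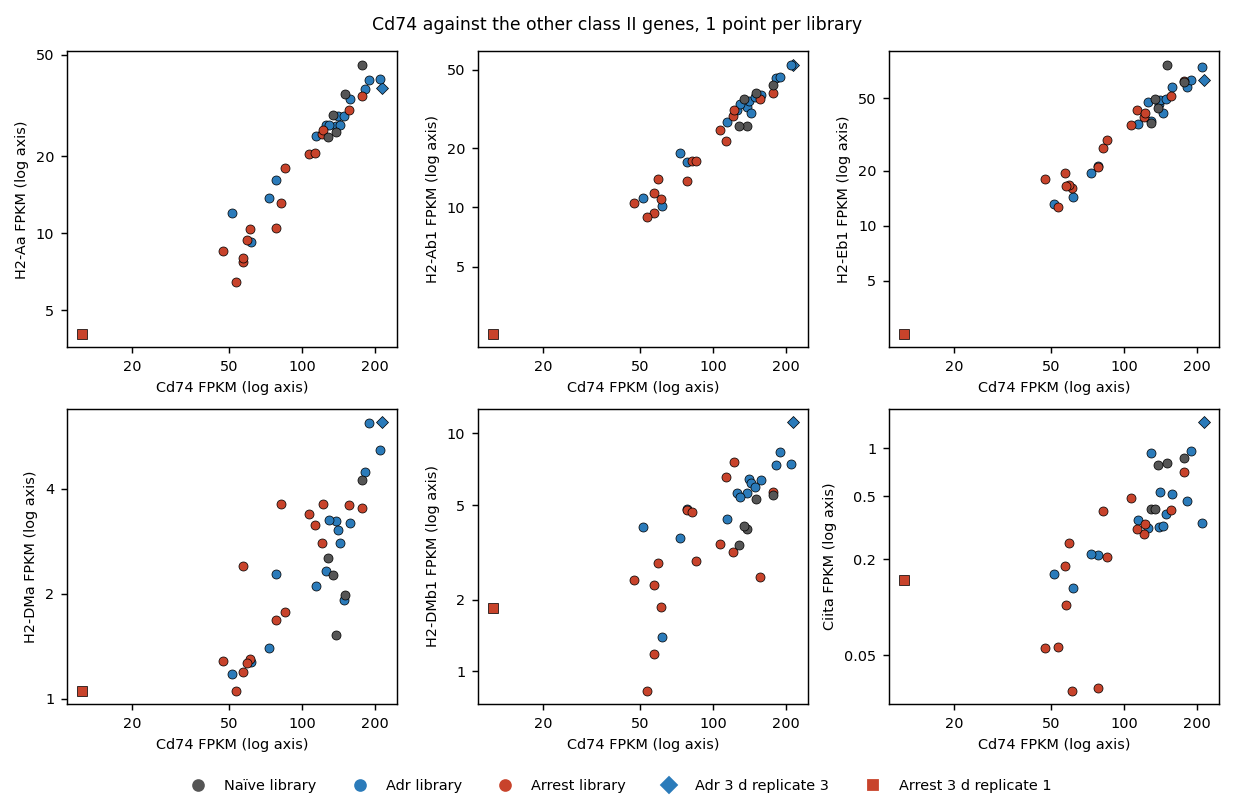
FPKM of Cd74 against each of the other 6 class II genes, with 1 point per library and log axes on both sides. The points for H2-Aa, H2-Ab1 and H2-Eb1 fall along a narrow line (r of 0.95 to 0.98 with Cd74), and those for H2-DMa, H2-DMb1 and Ciita scatter around a broader one.

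The ratio of Cd74 to each chain within a library shows how closely they kept step. Cd74 was 3.78 to 6.08 times H2-Ab1 per length, a range of less than a factor of 2, while H2-Ab1 itself ranged 23.2-fold over the same libraries. The ratio to H2-Eb1 ran from 1.96 to 4.87 and the ratio to H2-Aa from 3.09 to 8.36. The ratio to H2-Aa averaged 7.12 ± 1.18 in the Arrest 1 d group, 6.13 ± 1.04 in the Arrest 0.5 d group and 4.73 ± 0.72 in Naïve hearts (mean ± SD), and the ranges of Arrest 1 d and Naïve just touched at 5.52. The ratio to Ciita ran from 84.1 to 2514, with the highest value where Ciita had 5 fragments.

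Some other genes of the pathway were called. Of the 7 factors that bind class II promoters (Rfx5, Rfxap, Rfxank, Nfya, Nfyb, Nfyc and Creb1), none was called by limma at Arrest 1 d against Naïve. Their summed FPKM was 29.3 to 32.1 there and 27.8 to 32.7 in Naïve hearts. Rfx5, the DNA binding subunit of RFX, averaged 0.656 FPKM at Arrest 1 d and 1.41 FPKM in Naïve hearts. Of 11 genes for loading and turnover, 1 was called higher and 1 lower, where 7.11% of all genes were called in either direction. Without replicate 3 of Adr 3 d, Cd63, a membrane protein of late endosomes, was called higher as well (log2 difference 0.57, adjusted p = 0.0145). In the same fit Cd63 was also called higher at Adr 1 d against Naïve (log2 difference 0.59, adjusted p = 0.0321). Ctsl, a lysosomal protease that can cut the invariant chain, rose from 21.1 to 37.5 FPKM (log2 difference 0.79, adjusted p = 0.0172). Marchf8, a ubiquitin ligase that removes class II from the surface, fell from 6.90 to 4.99 FPKM (log2 difference -0.40, adjusted p = 0.0177). Of the co-stimulation genes, 0 of 5 tested were called at Arrest 1 d, and Icosl, a ligand of the T cell receptor ICOS, was called higher at Arrest 0.5 d (log2 difference 0.87, adjusted p = 0.0305).

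Interferon gamma is the best known inducer of Ciita. Of 15 tested genes of the interferon gamma response, 2 were called lower at Arrest 1 d and none higher. Of all genes 3.24% were called lower there. Ifngr2, the signalling chain of the interferon gamma receptor, fell from 52.5 to 23.3 FPKM (log2 difference -1.18, adjusted p = 0.00207). It was also lower at Arrest 0.5 d (log2 difference -1.01, adjusted p = 0.012). Gbp4, an interferon induced GTPase, fell from 4.27 to 1.52 FPKM at Arrest 1 d (log2 difference -1.0, adjusted p = 0.0264). Ifng itself was listed at 0 in 35 of the 37 libraries. The list summed to 135 to 154 FPKM in Naïve hearts and to 92.2 to 133 FPKM at Arrest 1 d, so these groups did not overlap. Ifngr2 alone made up most of the fall in the mean sum, from 145 to 104 FPKM. Of the 15 genes tested, 13 had a lower mean log2 value, with a median log2 difference of -0.16. Ifngr2 and Gbp4 were again the genes of this list called at Arrest 1 d without replicate 3 of Adr 3 d.

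Class I presentation, which serves CD8 T cells, had 2 of 14 genes called lower at Arrest 1 d and none called higher, where 3.24% of all genes were called lower. Psmb9, an immunoproteasome subunit whose gene lies in the class II region, fell from 5.33 to 2.25 FPKM (log2 difference -0.93, adjusted p = 0.0412). Erap1, which trims peptides in the endoplasmic reticulum, fell from 5.52 to 3.47 FPKM (log2 difference -0.53, adjusted p = 0.0151). The median log2 difference of the 14 genes was -0.13, beside -1.41 for the 7 class II genes and 0.03 for all genes tested. Nlrc5, the class I relative of Ciita, averaged 0.498 FPKM against 0.968 FPKM in Naïve hearts and was not called.

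**Figure D4:**
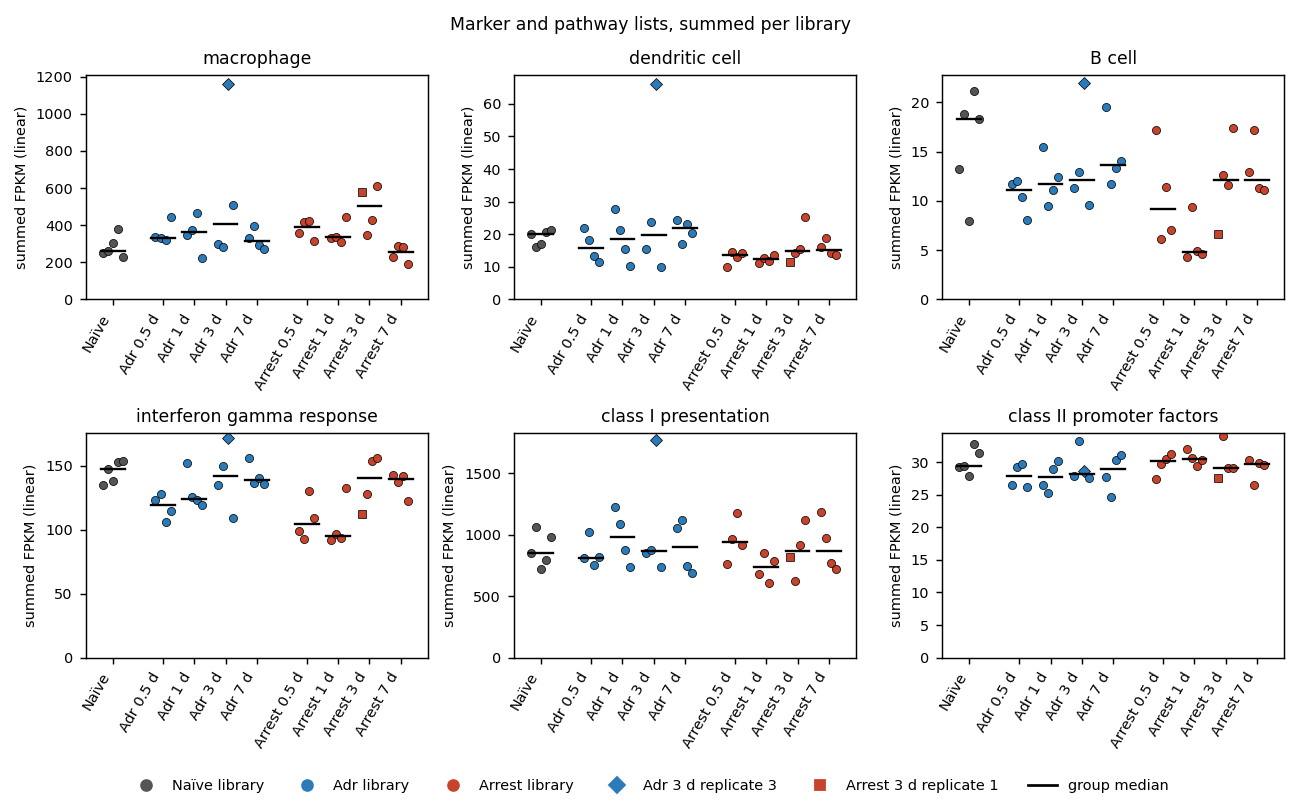
Summed FPKM (linear axes from 0) of marker and pathway lists, with 1 point per library and a line at each group median. The 4 Arrest 1 d libraries lie below the 5 Naïve libraries for the dendritic cell and interferon gamma lists and overlap them for the macrophage and B cell lists, and the diamond marks replicate 3 of Adr 3 d.

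Markers of the cells that carry class II were read beside these values. The 15 macrophage markers summed to 308 to 442 FPKM at Arrest 1 d and to 227 to 377 FPKM in Naïve hearts. Of these, 1 was called higher and none lower, namely Cd163, a scavenger receptor of resident macrophages, with a log2 difference of 1.15 (adjusted p = 0.039). Without replicate 3 of Adr 3 d, Cx3cr1, a chemokine receptor of monocytes and resident macrophages, was called lower as well (log2 difference -1.25, adjusted p = 0.0303). The 11 dendritic cell markers summed to 11.3 to 13.5 FPKM at Arrest 1 d and to 16.2 to 21.3 FPKM in Naïve hearts, without overlap, and none of the 9 tested was called. Fscn1 made up most of that sum, at 6.81 and 12.4 FPKM. Of the 9 tested, 6 had a lower and 3 a higher mean log2 value, with a median log2 difference of -0.08. Of the single markers, Zbtb46 and Clec9a averaged 2.71 and 1.67 FPKM at Arrest 1 d and 2.53 and 1.41 FPKM in Naïve hearts. Flt3 and Xcr1 were near 0 in both groups. Whether the Zbtb46 and Clec9a RNA came from dendritic cells was not tested.

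The 9 B cell markers summed to 4.30 to 9.34 FPKM at Arrest 1 d and to 7.96 to 21.1 FPKM in Naïve hearts, and 1 of the 5 tested was called lower, with 3 of the 5 lower and 2 higher in mean log2 value. The called gene, which made up most of the sum in Naïve hearts, was Ighm, the IgM heavy chain, and it fell from 12.3 to 2.73 FPKM (log2 difference -1.78, adjusted p = 0.00222). Ighm was higher again at Arrest 7 d than at Arrest 1 d (log2 difference 1.5, adjusted p = 0.0256). Ebf1, a transcription factor of the B lineage that other cells also express, averaged 2.26 FPKM at Arrest 1 d and 2.22 FPKM in Naïve hearts, and Ms4a1, a B cell surface protein, averaged 0.0219 and 0.115 FPKM. Of the T cell markers none was called, with sums of 0.591 to 1.65 FPKM at Arrest 1 d and 0 to 4.45 FPKM in Naïve hearts. Cd3d, Cd3e and Cd3g were at 0 in the Arrest 1 d group, but were near 0 throughout. They were at 0 in 24, 24 and 16 of the 37 libraries and at no more than 0.707 FPKM in any. None of 5 tested neutrophil markers was called, with sums of 6.52 to 20.3 FPKM at Arrest 1 d and 0 to 10.1 FPKM in Naïve hearts. The part of the dendritic cell, B cell and interferon gamma lists in the class II values was not tested.

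None of the 5 general leukocyte, 6 monocyte and 2 natural killer cell markers tested was called by limma at Arrest 1 d. Of 7 endothelial markers, Kdr (log2 difference -0.92) and Cdh5 (-0.42) were called lower and Egfl7 (0.43) higher at Arrest 1 d. Without replicate 3 of Adr 3 d, Kdr (-0.81, adjusted p = 0.0463) and Egfl7 (0.42, adjusted p = 0.0498) were also called at Adr 1 d against Naïve. No fibroblast or cardiomyocyte marker was called with all libraries. Without replicate 3 of Adr 3 d, Lum (log2 difference -0.91, adjusted p = 0.0446) and Ryr2 (-0.63, adjusted p = 0.00183) were called lower at Arrest 1 d. In that fit Ryr2 was also called lower at Adr 1 d against Naïve (-0.71, adjusted p = 0.00344). Cardiomyocyte markers summed to 15835 to 18564 FPKM against 13440 to 15908 FPKM in Naïve hearts. The adipocyte list had Fabp4 called higher (log2 difference 1.05), a fatty acid binding protein that endothelial cells also make, while Adipoq averaged 0.150 FPKM against 0.313 FPKM in Naïve hearts.

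Genes outside the 7 were ranked by how closely they followed them, as Spearman's rho with the mean z-score of the 7 genes over the 37 libraries among 11543 genes with a mean of at least 1 FPKM. The closest was Bst2, an interferon induced membrane protein, with a rho of 0.86. It was followed by Col15a1 (0.83), Marcks (0.81), Fcrls (0.79), Pea15a (0.78), Psmb9 (0.78), Myh9 (0.78), Gbp3 (0.77), Fscn1 (0.77) and Nrp2 (0.77). These values without replicate 3 of Adr 3 d ran from 0.75 to 0.84. For comparison, the median rho of all ranked genes was -0.01, with 5% of genes above 0.47. By list, the median rho was 0.53 for 12 interferon gamma genes, 0.43 for 13 class I genes, 0.06 for 15 macrophage markers and -0.18 for 6 class II promoter factors. It was 0.38 for 6 fibroblast markers, 0.36 for 2 B cell markers, 0.35 for 4 co-stimulation genes and 0.27 for 4 general leukocyte markers. The 3 ranked dendritic cell markers had 0.04, and the other lists lay between -0.19 and 0.08. These are descriptions over libraries that share groups and scaling.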

How the data were processed

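Left ventricular RNA was sequenced by Novogene, and the authors aligned reads with HISAT2 and deposited 1 table of FPKM for 56748 genes and 37 libraries. The counting tool, the strand counted and the genome build of the table are not given in the sources used here, so values of near-identical copies such as H2-DMb1 and H2-DMb2 are uncertain. FPKM times gene length was a whole multiple of 1 step per library in 100% of values (tolerance 0.01 fragments). The multiples were read as fragments, and their sum as the depth of each library (13.2 M to 30.2 M fragments). The step implied a depth of 0.889 to 1.41 times that sum, so the authors' FPKM carry a further scaling. Median ratio scaling gave 1.01 in every library, so the deposited FPKM were already level by this measure and the rescaling changed nothing between libraries. No per-sample column was unused (0 columns), and no 2 of 666 pairs of libraries were identical (0 pairs).

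The 16530 genes that reached 0.5 FPKM in 4 or more libraries entered the model as log2(FPKM + 1) in limma 3.58.1 (R 4.3.3; eBayes with trend), with 1 mean per group. The study's own tests used DESeq2, which was not run here on the fragments read from the FPKM. Replicates were taken as the labels number them. P-values were adjusted by Benjamini-Hochberg within each of 12 planned comparisons and the F test, and the model was tested on simulated data. Arrest 3 d and 7 d minus Arrest 1 d, the fits without replicate 1 of Arrest 3 d, and the promoter spacing were chosen after seeing the data. The 7 genes and all gene lists were chosen with earlier results of these data known. In other lists, called genes with the smallest adjusted p are named, up to 4 per list, together with defining markers. Rfx5, Nlrc5, Cx3cr1, Cd63, Lum, Ryr2 and Ebf1 are named in addition, after their values were seen. Correlations used 100000 permutations in numpy 2.4.6. Figures were drawn with matplotlib 3.10.9. Alternatives changed the scaling, pseudocount, filter, gene length trend, weights, covariates (replicate block, sex, library number in the labels), libraries in the fit, and left out each library in turn.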

Additional observations from a re-analysis of the deposited data

Results flagged for a closer look

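In each group the highest and the lowest library were set against the others by Dixon's criterion, whose 95% level chance passes in about 1 of 20 groups, and 10 of 63 gene and group pairs passed. Replicate 3 of Adr 0.5 d was the low library for 4 genes, at 9.25 FPKM for H2-Aa, 10.1 for H2-Ab1, 14.4 for H2-Eb1 and 1.39 for H2-DMb1. Replicate 3 of Arrest 0.5 d was the high library for 2 genes, at 24.5 FPKM for H2-Aa and 29.2 for H2-Ab1. Replicate 1 of Arrest 3 d was low for Cd74, at 12.5 FPKM. For H2-DMa, replicate 2 of Arrest 1 d was high at 2.40 FPKM and replicate 4 of Arrest 7 d was low at 1.77 FPKM. For Ciita, replicate 1 of Adr 7 d was high at 0.957 FPKM. Since the chains and Cd74 move together within a library, these cases are not independent of each other.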

How the results depend on the processing

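H2-Aa was called lower at Arrest 1 d against Naïve under all 23 alternatives (adjusted p from 0.000934 to 0.0436). Of the same 23, H2-Ab1 and H2-DMb1 were called under 13, Cd74 under 10 and H2-Eb1 under 7, and Ciita under 11 of 22. The alternative with the values as deposited differs from the main fit only by a constant of 1.01, so it is no separate check. The count of 5 became 2 with scaling by counted fragments, 1 with no filter, 1 with library number as covariate and 2 with the replicate block, and ran from 1 to 6 with a library left out. The library numbers of Arrest 1 d (70 to 95) and Naïve (116 to 127) did not overlap, so number and group differ together in this comparison. With that covariate the calls over all genes fell from 1176 to 34. The labels do not say what the library number means. Libraries with the same replicate number did not deviate together (r from -0.28 to 0.24, with every pair above 0.1 in 0 of 12 comparisons), so the replicate numbers are only names. The replicate block gave 0 calls in the F test and left every other count at 0. At Arrest 0.5 d the count of 0 became 1 with quantile normalization, 1 with a pseudocount of 0.1, and 0 to 1 with a library left out (1 without replicate 3 of Arrest 0.5 d, replicate 3 of Adr 3 d or replicate 1 of Arrest 3 d). Arrest 7 d minus Arrest 1 d went from 0 to 3 with sample quality weights, to 1 with only those groups fitted, and to 0 to 1 with a library left out (1 without replicate 3 of Adr 3 d or replicate 1 of Arrest 3 d). With the weights, calls over all 16530 genes in that comparison also rose, from 312 to 1815. The F test count of 1 became 2 with a pseudocount of 0.1, 2 with a mean of at least 1 FPKM, 2 with the gene length trend removed, 3 with weights and 0 with no filter. It ran from 0 to 4 with a library left out, and was 0 without replicate 2 of Naïve, replicate 1 or 2 of Adr 7 d, replicate 1, 2 or 4 of Arrest 0.5 d, or any library of Arrest 1 d. It was 4 without replicate 1 of Arrest 3 d, where the share of all genes was not counted.

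Over 2163 single-gene values, 2053 kept their direction and their side of the threshold, 44 lost the call, 18 gained it and 48 changed sign, and none of the 48 had passed the test. Against Naïve at Adr 0.5 d, H2-DMa became 0.0018 with counted fragments, 0.11 with weights and 0.020 with sex as covariate, and H2-DMb1 became 0.22 with weights. With library number as covariate H2-DMa became -0.32 at Adr 1 d, -0.46 at Adr 3 d, -0.18 at Arrest 3 d, -0.015 at Arrest 7 d and 0.28 for Arrest 3 d minus Adr 3 d. At Adr 7 d the same covariate gave -0.17 for H2-Aa, -0.14 for H2-Eb1 and -0.084 for Cd74. At Arrest 3 d H2-DMb1 became 0.17 with weights and 0.011 with sex, and Arrest 3 d minus Adr 3 d of H2-DMa became 0.18 with weights. With a library left out, Adr 3 d minus Naïve ran from -0.46 to 0.058 for H2-Aa, -0.47 to 0.24 for H2-Ab1, -0.68 to 0.043 for H2-Eb1, -0.45 to 0.23 for Cd74, -0.31 to 0.049 for Ciita and -0.059 to 0.51 for H2-DMa. Likewise H2-DMa ran from -0.12 to 0.18 at Adr 0.5 d, -0.076 to 0.32 at Adr 1 d and -0.023 to 0.36 at Arrest 3 d, and H2-DMb1 from -0.19 to 0.35 at Adr 0.5 d and -0.24 to 0.30 at Arrest 3 d. At Adr 7 d H2-Aa ran from -0.025 to 0.21 and H2-Eb1 from -0.095 to 0.25. Arrest minus Adr at 3 days ran from -1.29 to 0.079 for H2-Eb1 and -0.42 to 0.15 for H2-DMa, and at 7 days from -0.35 to 0.079 for H2-DMa and -0.15 to 0.063 for Ciita. The cause of these shifts was not tested. Depth limits Ciita most, with as few as 4 fragments in a library.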
